A study of Mus musculus with 6 samples.

Results

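Isx and 9 other genes of retinoid and carotenoid handling were described in mouse small intestine organoids treated with low-density lipoprotein (LDL) or with PBS. The genes were Isx, Scarb1, Bco1, Bco2, Rbp2, Lrat, Rdh7, Dhrs3, Aldh1a1 and Cyp26b1, which are 10 of the 55416 genes in the table, found by matching Ensembl identifiers to their symbols. They were chosen by their change with LDL in these same libraries, so their differences between treatments are a description, with no p-value for any of them and nothing read from how many were called. Organoids were grown in Matrigel from duodenal and jejunal crypts of 3 C57BL/6J mice whose genotype label is WT. Each mouse gave 1 culture with 50 μg/ml LDL and 1 with PBS, both kept for 5 days. The age and sex of the mice and the source species of the LDL were not given in the sources used here. The animal identifier of mouse 3 has another prefix than those of mice 1 and 2, while the genotype label of all 6 libraries is WT. Each treatment therefore had 3 libraries (n = 3), 1 per mouse, and the libraries of a mouse are paired across treatments.

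Dietary carotenoids enter the enterocyte through the scavenger receptor encoded by Scarb1 and are cleaved to retinal by BCO1, whereas BCO2 cleaves them away from the centre of the molecule. Retinal and retinol are interconverted by reductases and dehydrogenases such as DHRS3 and RDH7, retinol is held by the cellular binding protein RBP2 and esterified by LRAT for export in chylomicrons, and ALDH1A1 oxidizes retinal to retinoic acid, which CYP26B1 breaks down. ISX is an intestinal homeodomain factor whose gene is induced by retinoic acid, and it is known to repress Scarb1 and Bco1 in a negative feedback loop.

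Between 22061545 and 31073360 reads per library lay on genes, and 1 read was worth 0.814 to 1.24 normalized counts, the unit of the table, which is reads divided by 1 size factor per library. Counting error allows up to 3 reads on a gene without any, or 2.44 to 3.73 normalized counts. All 7 epithelial markers examined, Epcam and Vil1 among them, were tested, with a summed normalized count of 86799 to 90943 in PBS-treated and 98325 to 131083 in LDL-treated libraries. Of 10 stromal and 10 immune markers, 7 each fell short of the mean normalized count of 10 used for testing, among them the fibroblast gene Dcn, with 0 reads in the PBS-treated libraries and 4, 0 and 3 in the LDL-treated libraries of mice 1, 2 and 3, and the macrophage gene Adgre1, with 0 reads and 5, 0 and 3. The summed level of the stromal list was 167 to 193 with PBS and 100.9 to 165 with LDL, and that of the immune list was 151 to 218 and 175 to 273. The share of reads on Rn18s-rs5, a ribosomal RNA gene, was 7.62% in the LDL-treated library of mouse 1 and 3.02% in the PBS-treated library of mouse 2, and 0.0826% to 0.225% in the other 4 libraries. Reads were found on 35781 and 32751 genes in the LDL-treated libraries of mice 1 and 3 and on 29285 to 30018 in the other 4. The part of these differences between libraries in the values below was not tested.

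Isx is a protein-coding gene on the plus strand of GRCm39 at chr8:75599756-75620134, with 1838 bases of exon in 4 blocks. The PBS-treated organoids of mice 1, 2 and 3 held 5, 2 and 4 reads on Isx, which are normalized counts of 5.10, 2.49 and 3.26. The LDL-treated organoids of the same mice held 294, 662 and 379 reads, which are 359, 602 and 317. The PBS values lay close to the counting floor in every mouse, and the LDL values were all far above them. The mean was 3.62 ± 1.35 (SD, n = 3) with PBS and 426 ± 154 (SD, n = 3) with LDL. Within a mouse, the ratio of LDL to PBS was 70.3 in mouse 1 (exact 95% counting interval 29.8 to 218), 242 in mouse 2 (66.8 to 2004) and 97.3 in mouse 3 (37.7 to 359). These intervals cover counting error only, and their width comes from the few reads in PBS-treated organoids. On the scale of log2(normalized count + 1), the difference was 6.51 with a standard error of 0.33. Ordered by this value, Isx held rank 2 of the 18459 genes tested and rank 2 of the 11939 with a mean of at least 100. All log2 differences below are on this scale. It reached the mean of 10 that testing required only through the LDL-treated libraries. In bulk RNA, fewer cells that express a gene and less RNA per cell cannot be told apart, for Isx as for every gene below.

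**Figure D1:**
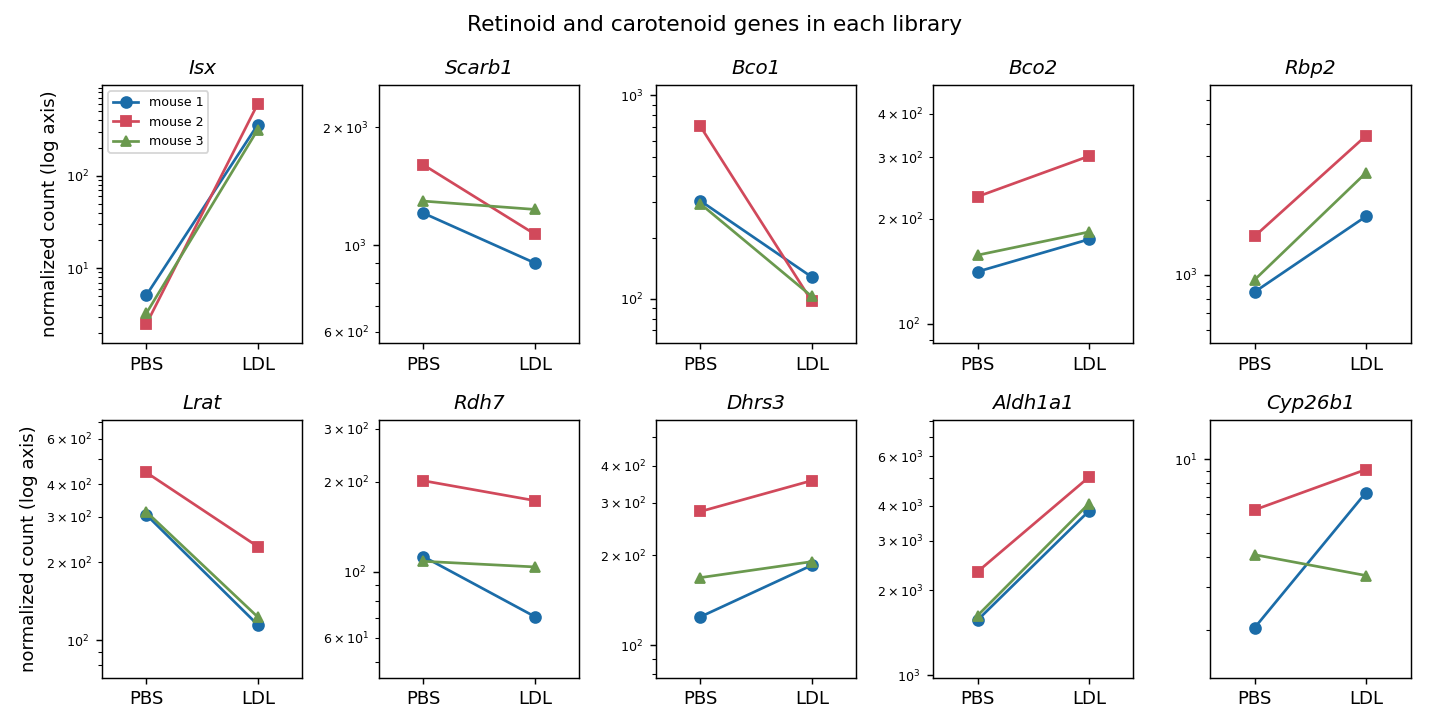
Normalized counts (log axis, a separate range for each gene) of the 10 genes in PBS- and LDL-treated organoids, with a line joining the 2 libraries of each mouse. Isx went from 2.49 to 5.10 with PBS to 317 to 602 with LDL, while Bco1 and Lrat were lower and Rbp2 and Aldh1a1 higher with LDL in all 3 mice.

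The stretches before the annotated starts are shown for Isx, whose level differed most, for Bco1, the known target of ISX with the largest negative difference, and for Rbp2, which shares a letter pattern with Bco1. The sequence was read from GRCm39 in the 250 bases before the GENCODE M39 canonical start, and only the piece nearest to the start that holds no exon of the same gene is printed. Isx is shown at chr8:75599551-75599755, Bco1 at chr8:117822343-117822592 and Rbp2 at chr9:98372503-98372575, all on the plus strand and written 5′ to 3′. Capitals mark every match to a searched motif.
Isx: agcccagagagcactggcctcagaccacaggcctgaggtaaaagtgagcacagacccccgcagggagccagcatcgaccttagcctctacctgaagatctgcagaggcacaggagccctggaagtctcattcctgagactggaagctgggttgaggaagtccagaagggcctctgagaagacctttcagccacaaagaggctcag
Bco1: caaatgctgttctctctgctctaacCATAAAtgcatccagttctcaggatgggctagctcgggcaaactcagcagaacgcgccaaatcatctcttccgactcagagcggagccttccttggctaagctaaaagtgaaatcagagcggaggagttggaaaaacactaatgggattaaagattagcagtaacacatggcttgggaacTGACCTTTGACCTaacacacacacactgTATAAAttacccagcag
Rbp2: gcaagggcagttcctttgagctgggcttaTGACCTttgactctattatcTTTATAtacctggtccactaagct

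The motifs searched on both strands were AGGTCA, which is the nuclear receptor half-site, AGGTCANAGGTCA, AGGTCANNAGGTCA and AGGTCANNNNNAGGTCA, which are pairs of it called DR1, DR2 and DR5, the homeodomain cores TAATTA and TAATTG, the CDX motif TTTATG, the GATA motif GATAAG and the TATA box TATAAA. Isx had no match to any of them in its 250 bases. Bco1 held a DR1 pair on the minus strand 45 to 33 bases before its start, where it reads TGACCTTTGACCT on the strand shown, with a TATAAA 17 to 12 bases before the start and a minus-strand TTTATG 225 to 220 bases before it. Rbp2 held a single AGGTCA on the minus strand 44 to 39 bases before its start and a minus-strand TATAAA 24 to 19 bases before it. A DR1 was found in 8 of 21770 protein-coding promoters of the same length (0.0367%), AGGTCA in 13.1% and TATAAA in 11.9%. Aldh1a1 and Cyp26b1 held 1 TATAAA each, and Scarb1, Bco2, Lrat, Rdh7 and Dhrs3 held none of the motifs. TTTATG was found in 2179 of the promoters, TAATTG in 7.47%, GATAAG in 6.38% and TAATTA in 5.18%. The DR2 was found in 0.00919% and the DR5 in 0.00459%. Matches to a DR motif also count as matches to AGGTCA. These are matches of letters and not measured binding. The lncRNA gene Gm63805 covers 196 of the 250 bases before the canonical Isx start on the same strand. The lncRNA gene Gm64503, on the minus strand, covers 126 of the 250 bases shown for Bco1, including the TTTATG match. Neither level was analysed here.

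Scarb1 and Bco1 stand for carotenoid uptake and cleavage and are the known targets of ISX. Scarb1 (chr5:125353547-125418176, minus strand) had normalized counts of 1207, 1603 and 1295 in the PBS-treated organoids of mice 1, 2 and 3, and of 900, 1067 and 1233 with LDL. The level with LDL was 0.746, 0.665 and 0.952 times that with PBS within the 3 mice, but the treatments overlapped, since the LDL value of mouse 3 exceeded the PBS value of mouse 1. The means were 1368 ± 208 and 1067 ± 167 (SD, n = 3), a log2 difference of -0.36 ± 0.15 (SE).

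Bco1 (chr8:117822593-117860459, plus strand) encodes the enzyme that splits beta-carotene at its centre. Its normalized counts were 303, 703 and 293 with PBS and 128, 97.3 and 103 with LDL in mice 1, 2 and 3. Every LDL value lay below every PBS value, and the mouse with the highest PBS level had the lowest LDL level. The LDL level was 0.422, 0.138 and 0.351 times the PBS level within the 3 mice. The mean was 433 ± 234 with PBS and 109 ± 16.4 with LDL (SD, n = 3), which is 3.96-fold lower with LDL, and a log2 difference of -1.86 ± 0.33 (SE).

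Bco2 (chr9:50443764-50466483, minus strand), for the other carotenoid-cleaving enzyme, showed no such difference. It was at 141, 231 and 157 with PBS and at 174, 302 and 183 with LDL. It was higher with LDL in each mouse, by 1.24-fold, 1.31-fold and 1.17-fold, while the treatments overlapped, and the log2 difference was 0.30 ± 0.27 (SE). The balance of the 2 enzymes therefore differed between treatments. Per kb of exon, the Bco1 level was 2.38, 3.36 and 2.06 times that of Bco2 in PBS-treated mice 1, 2 and 3, and 0.811, 0.356 and 0.620 times with LDL. Bco1 was thus the higher of the 2 in every PBS-treated library and the lower in every LDL-treated one.

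**Figure D2:**
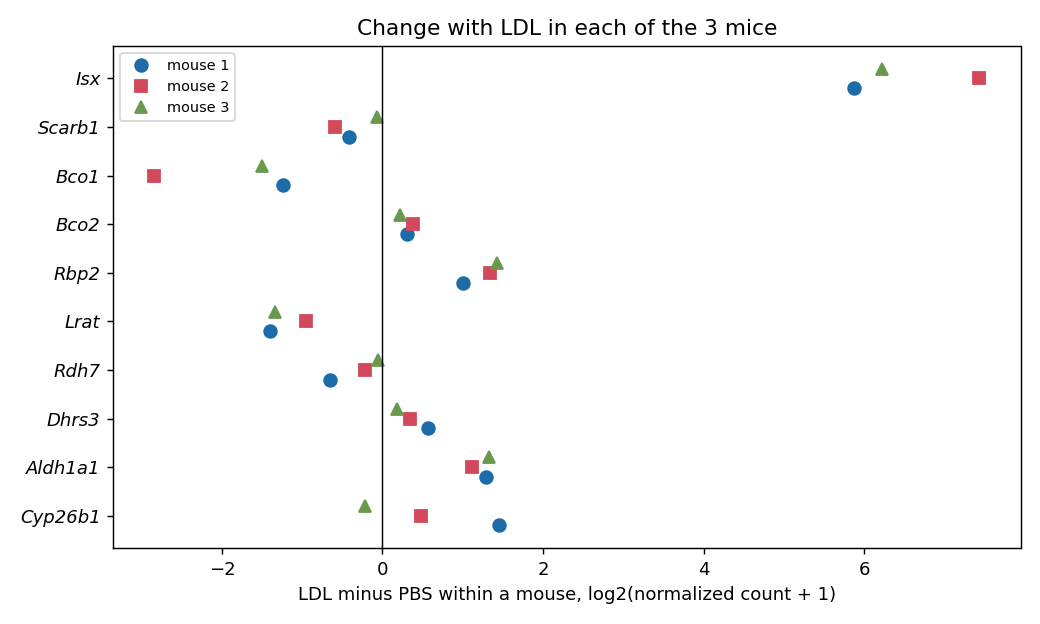
Difference between LDL and PBS within each mouse, in log2(normalized count + 1), for the 10 genes, with 1 point per mouse. Isx lay at 5.88, 7.43 and 6.22, Bco1 between -2.84 and -1.24, and Cyp26b1 is the gene whose 3 mice did not share a direction.

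Among the genes that hold and esterify retinol, the binding protein and the esterifying enzyme differed in opposite directions. Rbp2 (chr9:98368121-98391834, plus strand) had normalized counts of 851, 1424 and 953 with PBS and 1711, 3602 and 2560 with LDL. The lowest LDL value exceeded the highest PBS value, and within a mouse the level was 2.01, 2.53 and 2.69 times as high with LDL. Its means were 1076 ± 306 and 2624 ± 947 (SD, n = 3), a log2 difference of 1.26 ± 0.28 (SE). The standard error of this difference was 0.097 once the mouse was a term of the fit.

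Lrat (chr3:82799886-82811288, minus strand) was at 305, 445 and 313 with PBS and at 115, 230 and 123 with LDL. No LDL value reached a PBS value, and mouse 2 was highest under both treatments. The LDL level was 0.376, 0.517 and 0.392 times the PBS level within a mouse, and the means were 355 ± 78.4 and 156 ± 64.4 (SD, n = 3). The log2 difference was -1.23 ± 0.28 (SE), with a standard error of 0.13 when the mouse was a block. Per kb of exon, Rbp2 was 13.4, 15.4 and 14.6 times Lrat in the PBS-treated organoids and 71.9, 75.4 and 100.3 times in the LDL-treated organoids. The ratio lay in a narrow range across the mice within PBS and was several times higher in every LDL-treated library.

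Of the enzymes that interconvert retinol and retinal, neither listed here separated the treatments. Rdh7 (chr10:127719896-127724686, minus strand), which oxidizes retinol, was at 112, 201 and 108 with PBS and at 70.7, 173 and 104 with LDL, a log2 difference of -0.31 ± 0.36 (SE). Dhrs3 (chr4:144619245-144654779, plus strand), which reduces retinal and is itself a known retinoic acid target, was at 125, 281 and 169 with PBS and at 185, 356 and 191 with LDL, a log2 difference of 0.36 ± 0.35 (SE). Rdh7 was lower with LDL in each mouse and Dhrs3 higher in each, and for both the range over mice was wider than the difference between the treatment means. The within-mouse ratio of Rdh7 was 0.630, 0.858 and 0.958, and that of Dhrs3 was 1.49, 1.27 and 1.13. Rdh7 belongs to a cluster of similar genes, and 64 of the 1579 windows of read length in its transcript also occur in another annotated gene such as Rdh18-ps or Rdh1. Its count is uncertain to that extent. The related genes examined were low, with mean normalized counts over the 6 libraries of 6.60 for Rdh1, 4.82 for Rdh9, 5.12 for Rdh16, 10.8 for Rdh16f2 and 14.8 for Rdh19. The levels of Rdh18-ps, Rdh16f1 and Hsd17b6, which also share windows with Rdh7, were not analysed here.

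Aldh1a1 (chr19:20469539-20622825, plus strand), a retinaldehyde dehydrogenase, was abundant and was higher with LDL in each mouse. Its normalized counts were 1568, 2330 and 1627 with PBS and 3829, 5052 and 4067 with LDL. The treatments did not overlap, and the within-mouse ratios of 2.44, 2.17 and 2.50 lay close together. The means were 1842 ± 424 and 4316 ± 648 (SD, n = 3), a log2 difference of 1.24 ± 0.17 (SE). Across the exons of Aldh1a1, 646 bases are shared with the lncRNA gene C730002L08Rik on the opposite strand, which was at 4.07 to 9.19 with PBS and 18.4 to 35.4 with LDL. The 2 strands can be told apart only if the counting used strand, which was not given in the sources used here. Its paralog Aldh1a7 was at 360 ± 10.2 with PBS and 478 ± 151 with LDL (SD, n = 3), and no window of read length of the Aldh1a1 transcript occurred in any other gene. For Scarb1, Lrat and Bco2, 5.54%, 4.83% and 2.54% of such windows lay in an lncRNA gene on the opposite strand, and for Isx, Bco1, Rbp2, Dhrs3 and Cyp26b1 the share was 0%.

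Cyp26b1 (chr6:84548396-84570890, minus strand), the retinoic acid hydroxylase, was hardly detected. It held 2, 5 and 5 reads with PBS and 6, 10 and 4 reads with LDL in mice 1, 2 and 3. Its mean normalized count of 5.35 lay under the minimum of 10, so it was the 1 gene of the 10 that was not tested. The ratio of LDL to PBS was 3.58 in mouse 1 (exact 95% counting interval 0.641 to 36.3), 1.46 in mouse 2 (0.456 to 5.46) and 0.822 in mouse 3 (0.163 to 3.82), so that each interval includes 1 and a difference was not detectable at this depth.

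Between genes, levels were compared per kb of exon, counting every annotated exon base of a gene. This length was 10346 bases for Scarb1 and 10740 for Aldh1a1, against 2539 and 6202 in their canonical transcripts. For Isx it was 1838 against 1793. The order below, such as that of Isx and Scarb1, therefore holds for this length only and was not repeated with transcript lengths. With PBS, the order from high to low was Rbp2 (967 ± 275 normalized counts per kb), Aldh1a1 (171 ± 39.5), Scarb1 (132 ± 20.1), Bco1 (112 ± 60.5), Lrat (66.2 ± 14.6), Rdh7 (60.5 ± 22.6), Dhrs3 (59.0 ± 24.8), Bco2 (41.3 ± 11.3), Isx (1.97 ± 0.73) and Cyp26b1 (0.721 ± 0.366), each as mean ± SD with n = 3. Only Rbp2, Bco2 and Isx were separated from the next gene in this order, and the other neighbours overlapped over the 3 mice. With LDL, Isx stood at 232 ± 83.8 per kb, below Rbp2 (2358 ± 851) and Aldh1a1 (402 ± 60.4) and above Scarb1 (103 ± 16.1), without overlap on either side. Bco1 (28.3 ± 4.24) and Lrat (29.1 ± 12.02) were then the lowest genes above Cyp26b1 (1.16 ± 0.52), and they overlapped each other. Dhrs3 (75.2 ± 30.0), Bco2 (51.5 ± 16.7) and Rdh7 (49.8 ± 22.4) lay between them and Scarb1 and overlapped their neighbours.

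**Figure D3:**
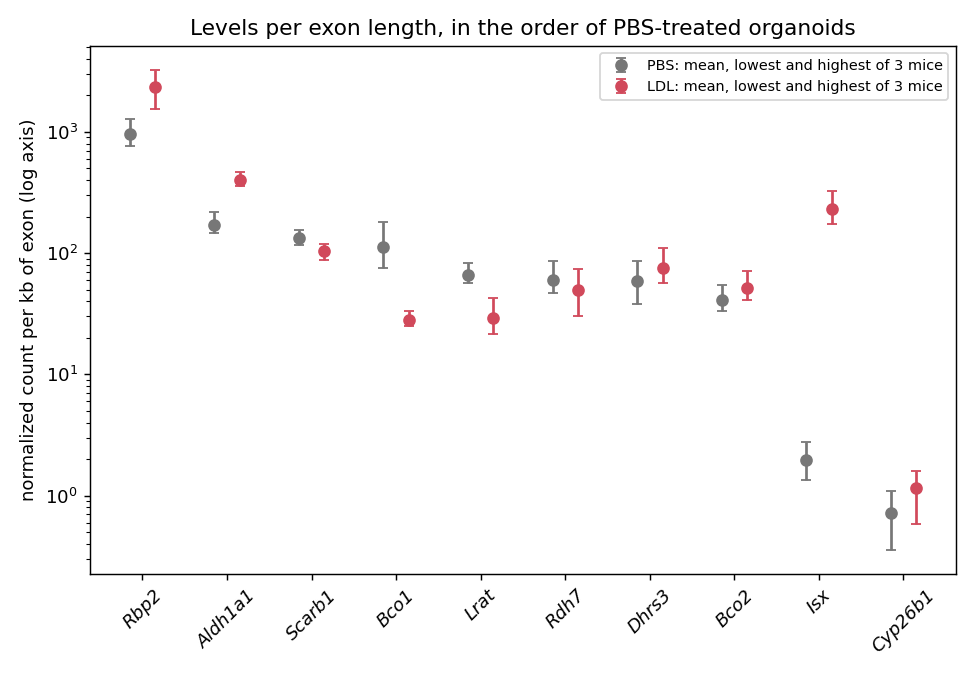
Normalized count per kb of exon (log axis) of the 10 genes in PBS- and LDL-treated organoids, as the mean with the lowest and highest of 3 mice, in the order of the PBS means. By this length, which counts every annotated exon base, Isx held rank 9 with PBS, at 1.97 per kb, and rank 3 with LDL, at 232 per kb.

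The fit across all genes used limma on log2(normalized count + 1), with treatment as its term, and called a gene at a Benjamini-Hochberg adjusted p-value under 0.05 and a difference of more than 1.5-fold. Of the 9 genes tested, 2 were called higher with LDL (Isx and Aldh1a1), against 0.878% of all genes tested, and 1 was called lower (Bco1), against 0.395%. With the mouse as a replicate block, 3 were called higher, Rbp2 being added, against 5.68%, and 2 were called lower, Lrat being added, against 3.46%. The values of the treatments did not overlap for 5 of the 9 genes, against 24.2% of all genes tested, and the 3 mice shared a direction for 9 of the 9, against 51.1%. Since the genes were chosen on this difference, nothing is read from these shares. The median log2 difference over the 9 genes was 0.30, and over all genes tested it was -0.016. Which genes were called also varied with the libraries in the fit. Isx alone was called without the LDL library of mouse 3, the PBS library of mouse 1 or the PBS library of mouse 3. Isx, Rbp2 and Aldh1a1 were called without the LDL library of mouse 1. Without both libraries of mouse 3, limma called 0 of these genes. There, 3 were higher and 2 lower at an unadjusted p-value under 0.05 with more than 1.5-fold, against 605 and 387 of the 18459 genes tested. That fit of 2 libraries against 2 called 0 of the 18459 genes, and in it the log2 difference was 6.66 for Isx, 1.20 for Aldh1a1 and -2.04 for Bco1, close to the values from all libraries.

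A difference between mice ran through these genes. Mouse 2 was the highest of the PBS-treated libraries for 9 of the 10 genes, all but Isx, against 33.8% of all genes tested, and the highest of the LDL-treated libraries for 8 of the 10, all but Scarb1 and Bco1, against 40.0%. The 9 include Cyp26b1, which was not tested and held 5 reads with PBS in mouse 2 as in mouse 3. This comparison is within a treatment and is not the one the genes were chosen on. In the wider list of 62 genes of retinoid handling described below, of which 21 were not tested, mouse 2 was the highest for 26 with PBS and 31 with LDL. Mouse 2 was also the highest in PBS-treated organoids for 12 of 12 enterocyte markers, which are genes of the absorptive cell such as Sis (sucrase-isomaltase) and Fabp2, and in LDL-treated organoids for 9 of 12. The summed level of these markers was 48110, 85336 and 46475 in the PBS-treated organoids of mice 1, 2 and 3 and 68285, 104047 and 69476 in the LDL-treated organoids. Within a mouse the sum was thus also higher with LDL, but the markers did not move as one. Alkaline phosphatase Alpi rose (log2 difference 2.13, adjusted p = 0.00828 from limma), and with the mouse block 6 of the 12 rose, Alpi, Apoa4, Apob, Fabp2, Krt20 and Mttp, while lactase Lct fell, against 5.68% of all genes tested that rose and 3.46% that fell in that fit. Sis, Anpep and Slc5a1 were also lower with LDL in each mouse, by under 1.5-fold, and were not called. The part of the enterocyte markers in the values of Rbp2, Lrat, Bco1 and the rest was not tested.

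**Figure D4:**
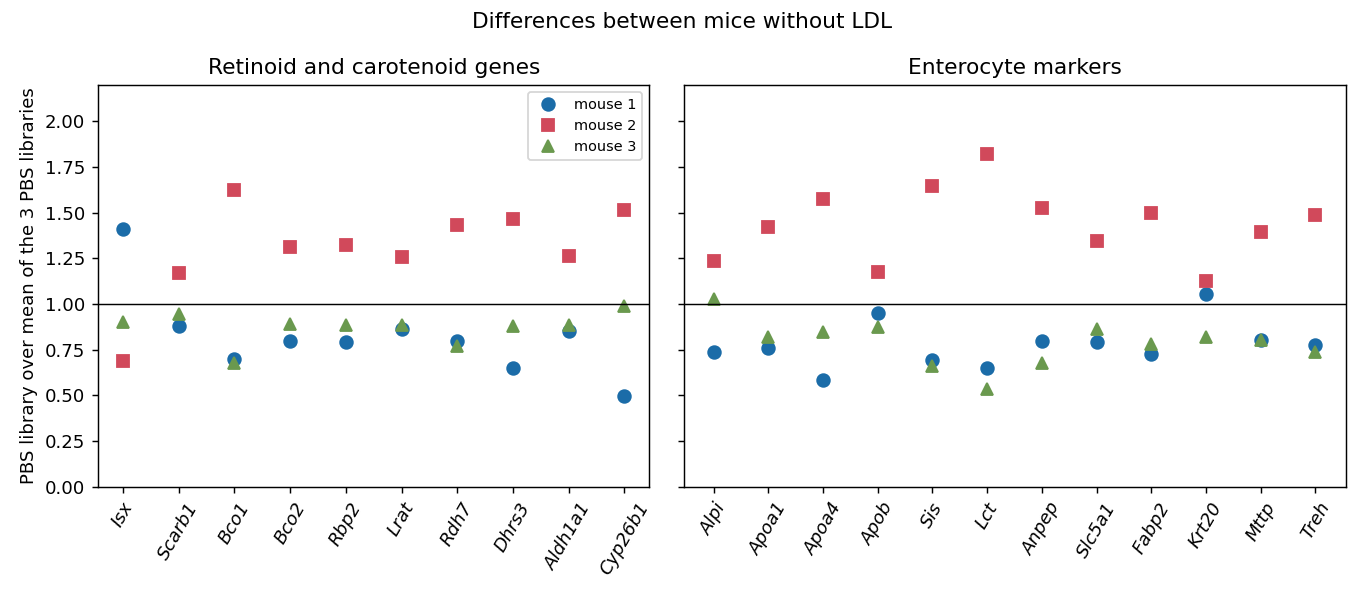
PBS-treated libraries only: level in each mouse divided by the mean of the 3 PBS-treated libraries, for the 10 retinoid and carotenoid genes (left) and 12 enterocyte markers (right). Mouse 2 is the highest point for 9 of the 10 genes and for 12 of the 12 markers.

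A wider list of 62 further genes of retinoid handling was then examined, of which 41 were tested and 21 had a mean under 10. In this list 2 genes rose with LDL without the block, Akr1b8 and Adh4, and 0 fell by limma. At an unadjusted p-value under 0.05 with more than 1.5-fold in that fit, 14 were higher and 3 lower, against 1170 and 776 of the 18459 genes tested. edgeR without the block called 2 higher and 0 lower, against 186 and 70 of the 18459. With the mouse as a block, 13 rose and 5 fell in limma, against 5.68% and 3.46% of all genes tested, and without it the shares were 0.878% and 0.395%. Calls below are from limma unless another tool is named. DESeq2 without the block called 11 higher and 2 lower, against 846 and 348 of the 18459 genes tested. The median log2 difference of the list was -0.038, close to that of all genes tested, with 20 genes higher and 21 lower. The list was written with results from these libraries known and is no independent evidence of a direction.

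Of 17 tested enzymes of retinol and retinal conversion, 6 rose in the blocked fit and 0 fell, against 5.68% and 3.46% of all genes tested. Akr1b8, an aldo-keto reductase, rose from 432 ± 159 to 3978 ± 683 (SD, n = 3), a log2 difference of 3.26 ± 0.28 (adjusted p = 0.00339 from limma). Adh4, an alcohol dehydrogenase that accepts retinol, rose from 19.2 ± 8.75 to 99.5 ± 40.6 (log2 difference 2.33 ± 0.40, adjusted p = 0.0395 from limma). The other 4 of the 6 were called by limma with the block and not without it. DESeq2 called all 4 without the block but not Sdr16c5 with it, and limma without a filter on the mean called Rdh10. These 4 were Rdh10, Sdr16c5, Dhrs9 and Adh7. Rdh10, the main retinol dehydrogenase of the embryo, was at 902, 778 and 874 with PBS and 3058, 1186 and 3376 with LDL. The log2 differences of Sdr16c5, Dhrs9 and Adh7 were 1.85, 1.14 and 1.41. Sdr16c5 held 5, 2 and 5 reads with PBS and reached the mean of 10 only through the LDL-treated libraries. For Rdh10 the adjusted p-value from limma was 0.0945 without and 0.00584 with the block. Mouse 2 had the smallest difference in Rdh10. In Isx, mouse 2 had the largest, but this rested on 2 reads with PBS, and the counting intervals of the 3 mice overlapped. In retinal oxidation, Aldh1a3 rose with the block, from 23.5, 12.4 and 24.4 to 184, 22.7 and 96.2 in mice 1, 2 and 3 (adjusted p = 0.187 from limma without and 0.0141 with the block). Aldh1a2 was not tested, since it held at most 2.44 normalized counts in a library.

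In uptake and transport, 1 of 4 tested members rose and 3 fell in limma with the block, against 5.68% and 3.46% of all genes tested. None of them was called in limma without the block. DESeq2 without the block, and limma without a filter on the mean, also called Cd36 higher and Stra6l and Ttr lower. The scavenger receptor and fatty acid transporter Cd36 rose from 15.7 ± 10.1 to 58.9 ± 19.0 (SD, n = 3, log2 difference 1.95, adjusted p = 0.0780 from limma without and 0.00333 with the block). The 3 that fell were Ttr, the plasma partner of retinol-binding protein, from 406 ± 96.5 to 97.3 ± 57.2 (SD, n = 3, adjusted p = 0.0588 from limma without and 0.00289 with the block), Stra6l, a receptor for retinol-binding protein, from 1138 ± 49.1 to 706 ± 181, and the sterol transporter Npc1l1, with a log2 difference of -0.75. Among binding proteins, Rbp7 fell with the block (log2 difference -0.86). In ester formation and hydrolysis, Ces1f, Lipe and Pnliprp2 rose with the block, with log2 differences of 0.80, 0.68 and 0.72, and Ces1e fell, with -1.04. Dgat1, which can also esterify retinol, was not called, with a log2 difference of -0.038.

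Of the 4 receptors of retinoic acid that were tested, 0 were called by limma with or without the block, and edgeR with the block called Rarg higher. Rara was at 638 ± 84.5 with PBS and 641 ± 8.43 with LDL (SD, n = 3), and its log2 difference of 0.014 turned to -0.013 with upper-quartile scaling. Rarg was at 29.4 ± 8.39 and 51.4 ± 3.08 (adjusted p = 0.156 from limma without and 0.0552 with the block). Rxra was at 1720 ± 53.6 and 1335 ± 259, a difference under 1.5-fold, and Rxrb had a log2 difference of -0.29. Rarb, itself a known target of retinoic acid, was not tested, at 1.24 to 3.06 with PBS and 5.85 to 8.18 with LDL. Of 7 genes known to respond to retinoic acid, 2 could be tested, and Tgm2, a transglutaminase, rose with the block (940 ± 50.1 to 1463 ± 387, adjusted p = 0.117 from limma without and 0.0145 with it). The other, Nrip1, was at 4134 ± 479 with PBS and 3984 ± 525 with LDL (SD, n = 3). Its log2 difference was -0.055, and it was not called in either fit. Cyp26a1, the usual retinoic acid target among the breakdown enzymes, held at most 1 read in any library. Most of the 7 genes listed for their response to retinoic acid lay under the limit of testing.

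**Figure D5:**
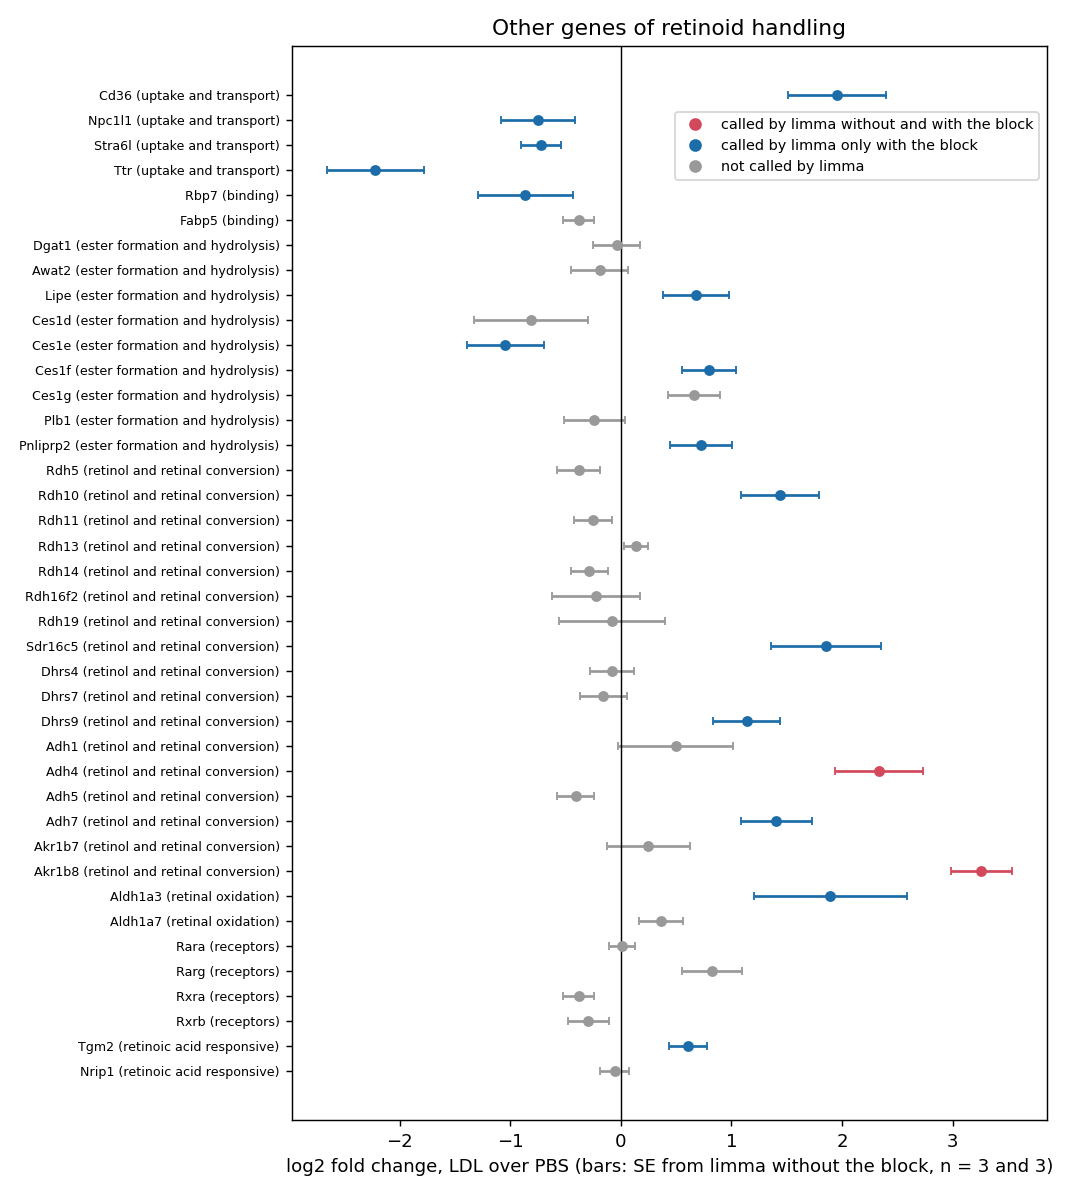
Log2 fold change of LDL over PBS for 40 of the 41 tested genes of the wider list, by role, with bars for the standard error from limma without the block (n = 3 and 3). Akr1b8 and Adh4 were called by limma without and with the mouse block, and 15 further genes shown, 10 higher and 5 lower, were called by limma only with the block.

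The genes whose level most resembled that of Isx over the 6 libraries were taken from the 11938 with a mean of at least 100. They were Me1, malic enzyme (Pearson r = 0.998), Entpd8 (0.997), Acacb, an acetyl-CoA carboxylase (0.997), the lncRNA gene Gm13657 (0.994) and Hsd17b11 (0.993). The 6 libraries fall into the 2 treatments, so these values mostly restate a difference between treatments that was large beside the spread between mice. Me1 was at 953, 897 and 898 with PBS and 3614, 3820 and 3453 with LDL. Acacb was at 73.5, 60.9 and 79.8 with PBS and at 610, 966 and 629 with LDL, so that mouse 2 was the lowest with PBS and the highest with LDL. Isx was also highest with LDL in mouse 2. Its order with PBS rests on 5, 2 and 4 reads and cannot be told from counting error. In the same measure the likeness to Isx was 0.935 for Aldh1a1, 0.855 for Rbp2, 0.433 for Bco2, 0.371 for Dhrs3, -0.294 for Rdh7, -0.741 for Scarb1, -0.834 for Lrat and -0.929 for Bco1. Scarb1 and Bco1, which ISX is known to repress, thus stood on the negative side together with Lrat and Rdh7. After the mean of each mouse was removed, the 5 most alike genes were 1110038B12Rik, Abcf2, Man2b2, Zdhhc16 and Syk, none of which was called, with log2 differences of 0.20, 0.22, 0.54, 0.084 and 0.71. That measure follows the proportions between the differences of the 3 mice and not their size.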

How the data were processed

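RNA from 6 organoid cultures, LDL- and PBS-treated cultures of 3 mice, was sequenced as ribosome-depleted stranded libraries. Per the submitters' processing notes and the study's methods, reads were demultiplexed with bcl2fastq 2.20, aligned to GRCm39 with STAR and counted per gene with featureCounts, and DESeq2 was used for differential expression. The strand setting of the counting and any pairing term were not given in the sources used here. The authors deposited normalized counts as signal values, in which the reads of a library are divided by its size factor. Whole reads were recovered for 100% of values (tolerance 0.001) and served the count tools.

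Symbols and positions came from GENCODE M39, which holds 54749 of the 55416 identifiers and lacks 667. The genes described, the wider retinoid list and the marker lists were chosen with earlier results of these data known. Genes with a mean of at least 10 (18459) were tested on log2(normalized count + 1) with limma 3.58.1 in R 4.3.3 (eBayes with a trend, two-sided, Benjamini-Hochberg over all genes tested), with calls at an adjusted p-value below 0.05 beyond 1.5-fold. Treatment was the only term. An alternative fit had the mouse as a block, because the labels of both libraries of a mouse share 1 animal identifier. With treatment means removed, the correlation across genes between libraries of 1 mouse was 0.484, 0.421 and 0.462, and between different mice it was -0.368 to -0.0809.

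Other alternatives were pseudocounts of 0.5 and 5, no filter, a minimum mean of 50, scaling by the upper quartile, any fold change, libraries left out, and edgeR 4.0.16 and DESeq2 1.42.0 on the recovered reads. The tests were tried on simulated data with known answers. The text names the 10 genes, the genes of the wider list that were called in the fit with or without the block, its receptors, close paralogs, the 5 genes most alike to Isx by Pearson correlation, and from a list of intestinal factors the called genes and Cdx1, Cdx2, Hnf4a and Gata4. Dgat1, Aldh1a2 and Nrip1 were named after their values had been seen. Ratios of reads have exact 95% binomial intervals. Python 3.11.15 with pandas 2.3.3, scipy 1.17.1, numpy 2.4.6 and matplotlib 3.10.9 served for tables and plots. Quantitative PCR and in vivo assays of the study were not analysed here, and 1 gene of the wider list, though counted, is not reported by name.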

Additional observations from a re-analysis of the deposited data

How the results depend on the processing

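The numbers of calls depended on the fit, and the log2 differences of the 9 tested genes did not change sign under any of 18 alternatives. Of the 10 genes, 2 were called higher and 1 lower. No filter on the mean gave 2 lower and a mean of at least 50 gave 0 lower. With the replicate block, limma, DESeq2 and edgeR each called 2 lower, and DESeq2 without it also called 2. Leaving out libraries gave 0 to 3 higher and 0 to 2 lower. In the wider list, with 2 higher and 0 lower, no filter gave 4 and 2, limma with the replicate block 13 and 5, DESeq2 11 and 2, DESeq2 with the block 12 and 6, and edgeR with the block 14 and 5. Leaving out libraries gave 0 to 9 higher and 0 to 7 lower there. The cause of these shifts was not tested. Rara changed sign, to -0.013 with upper-quartile scaling, and it ranged from -0.081 (PBS library of mouse 2 left out) to 0.11 when libraries were left out. Over all genes tested, limma called 162 higher and 73 lower, which became 1048 and 639 with the replicate block, 846 and 348 with DESeq2, 981 and 511 with DESeq2 and the block, 1171 and 588 with edgeR and the block, 506 and 245 without a filter, and 0 to 1179 and 0 to 1133 when libraries were left out. Over all alternatives the log2 difference ranged from 5.599 to 6.88 for Isx, -2.08 to -1.45 for Bco1, 0.996 to 1.53 for Rbp2, -1.55 to -1.05 for Lrat and 1.12 to 1.42 for Aldh1a1. That of Rdh7 ranged from -0.65 to -0.0098, that of Bco2 from 0.052 to 0.51 and that of Dhrs3 from 0.057 to 0.68. Depth limits Isx with PBS and Cyp26b1, which held at most 5 and 10 reads in a library.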

Other observations

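Transcription factors of the intestinal epithelium were examined beside Isx, since CDX2, HNF4A and GATA4 are known regulators of genes in this tissue. Of 17 such genes, all tested, 0 were called by limma. At an unadjusted p-value under 0.05 with more than 1.5-fold in that fit, 3 were higher and 0 lower, against 1170 and 776 of the 18459 genes tested. edgeR called 0, against 186 higher and 70 lower of the 18459. DESeq2 called 3 higher and 0 lower, against 846 and 348. With the mouse as a block in limma, 3 rose, against 5.68% of all genes tested, namely Gata5, Nr1h4 (the bile acid receptor) and Ppard, with log2 differences of 0.64, 0.80 and 0.76. Gata5 was at 527, 569 and 656 with PBS and 984, 754 and 1001 with LDL in mice 1, 2 and 3 (adjusted p = 0.0771 from limma without and 0.00798 with the block), and its treatments did not overlap. Cdx1 was at 2092 ± 69.0 with PBS and 1423 ± 278 with LDL (SD, n = 3), a difference under 1.5-fold. Cdx2, Hnf4a and Gata4 were not called in either fit, with log2 differences of -0.23, -0.20 and -0.14 relative to a median of -0.016 over all genes tested. The list as a whole had a median of -0.075.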
